A study of Mus musculus with 3 samples.

Results

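The genes of cholesterol and fatty acid synthesis were examined in single-cell RNA-seq (scRNA-seq) of mouse aortas. They were 33 listed genes, found by symbol among the 32285 genes counted, and all 33 were present. The list was drawn up by known function. It held 20 genes of sterol synthesis, 7 genes of fatty acid synthesis and 6 genes of regulation or sterol transport. The study compared male mice that carry human APOE2, APOE3 or APOE4 at the mouse Apoe locus instead of the mouse gene, all backcrossed to C57BL/6J. From 12 weeks of age all 3 groups received a Western diet with 42% fat and 0.2% cholesterol for 16 weeks, so no group on chow and no mouse with its own Apoe enters a comparison. Cells of the whole digested aorta were combined within a genotype (6 APOE2 mice, 5 APOE3 mice and 7 APOE4 mice) and run as 1 droplet library per genotype. The genes of the human alleles are not among the counted genes, and mouse Apoe was counted at 191, 200.1 and 181 transcripts per 1000000 in the APOE2, APOE3 and APOE4 libraries, so the genotype labels were not checked by this gene.

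Cholesterol is built from acetyl-CoA through mevalonate, farnesyl diphosphate, squalene and lanosterol, and fatty acids are built from the same acetyl-CoA through malonyl-CoA. Both routes are set by the SREBP transcription factors, which the genes Srebf1 and Srebf2 encode. When sterols in the endoplasmic reticulum are low, Scap escorts SREBP to the Golgi, where it is cut and released to the nucleus, and when sterols are high, Insig proteins hold Scap back. A cell with excess cholesterol also makes oxysterols, which activate LXR receptors and their targets for cholesterol export, Abca1 and Abcg1. In the artery wall on a cholesterol-rich diet, macrophages and smooth muscle cells can take up lipoprotein cholesterol and respond through these pathways.

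The 3 libraries kept 11772 cells for APOE2, 6737 for APOE3 and 8248 for APOE4, with medians of 12047, 17618 and 13522 transcripts per cell, each transcript counted once by its unique molecular identifier (UMI). Between 14 and 27 cell barcodes were shared by a pair of libraries. The level of a gene in a class of cells is given in CPM, its UMIs per 1000000 UMIs counted in that class, with a 95% interval from the exact Poisson method, and a difference as the log2 ratio of 2 CPM values with an exact conditional binomial 95% interval. Both intervals hold counting error and nothing else. A genotype had a single library, so there was no replicate and no test, and the mice, the cell pool and the library cannot be told apart from the genotype. Levels are compared within a gene, between cells or libraries, and not between genes. Values in a row of 3 are in the order APOE2, APOE3, APOE4.

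Clustering without the 33 genes gave 26 clusters. Smooth muscle cells are those of the 14 clusters that kept the smooth muscle markers (8964, 5057 and 6364 cells), of which 8 also took the name by its full rule. The other classes used were fibroblasts (1152, 641 and 932 cells), macrophages (406, 126 and 171), endothelial cells (145, 33 and 38), T lymphocytes (122, 20 and 105) and B lymphocytes (35, 11 and 271). Erythroid cells, which have no active sterol synthesis, served as a measure of free RNA. The summed smooth muscle markers stood at 52005, 60478 and 56583 CPM in smooth muscle cells, and at 7294, 14255 and 12080 CPM in macrophages, where all 10 of these markers were detected in each library. Summed immediate early and heat shock genes, a list of 14 genes that respond to tissue digestion, stood at 11951, 14790 and 21004 CPM in smooth muscle cells. They stood at 8215, 9410 and 17305 CPM in fibroblasts and at 20118, 31100 and 24229 CPM in macrophages.

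SREBP binds next to NF-Y at the promoters of its targets, so the promoter sequences of 4 genes that differed between libraries or head the pathway are shown, for Hmgcs1 (chr13:119690101-119690400, plus strand), Idi1 (chr13:8885356-8885655, plus strand), Cyp51 (chr5:4104648-4104947, minus strand) and Insig1 (chr5:28071162-28071461, plus strand). Each runs from 250 bases before to 50 bases after a RefSeq transcription start on GRCm38.p6, 5' to 3' on the gene's strand. Capitals mark the NF-Y box CCAAT and the sterol regulatory element TCACNCCAC, read on either strand.
Hmgcs1: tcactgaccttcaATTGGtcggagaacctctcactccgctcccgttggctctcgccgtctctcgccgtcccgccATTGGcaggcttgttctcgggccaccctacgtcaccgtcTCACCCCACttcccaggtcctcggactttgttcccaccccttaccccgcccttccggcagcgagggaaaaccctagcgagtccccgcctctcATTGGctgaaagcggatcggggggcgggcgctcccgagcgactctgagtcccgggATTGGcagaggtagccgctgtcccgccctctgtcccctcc
Idi1: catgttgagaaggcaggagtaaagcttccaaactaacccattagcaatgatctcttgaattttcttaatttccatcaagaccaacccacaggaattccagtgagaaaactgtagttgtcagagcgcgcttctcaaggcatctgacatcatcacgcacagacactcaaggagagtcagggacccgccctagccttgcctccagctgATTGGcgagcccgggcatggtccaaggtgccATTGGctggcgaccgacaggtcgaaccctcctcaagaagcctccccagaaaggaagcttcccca
Cyp51: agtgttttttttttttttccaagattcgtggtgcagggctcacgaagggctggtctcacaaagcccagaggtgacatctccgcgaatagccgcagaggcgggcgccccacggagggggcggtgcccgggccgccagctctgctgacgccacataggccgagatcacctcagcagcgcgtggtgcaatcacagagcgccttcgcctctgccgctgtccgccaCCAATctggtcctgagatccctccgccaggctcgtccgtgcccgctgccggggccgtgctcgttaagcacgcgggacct
Insig1: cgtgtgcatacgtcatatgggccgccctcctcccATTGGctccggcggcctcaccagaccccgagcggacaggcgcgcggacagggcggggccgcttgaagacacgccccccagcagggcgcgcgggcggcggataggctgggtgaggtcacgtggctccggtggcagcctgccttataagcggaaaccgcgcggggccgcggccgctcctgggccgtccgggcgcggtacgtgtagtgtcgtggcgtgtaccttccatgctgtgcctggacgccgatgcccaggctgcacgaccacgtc
RefSeq windows were found for 27 of the 33 genes, 35 windows in all, and Stard4, Fdft1, Scd1, Scd2, Sqle and Fdps had none. CCAAT stood in 68.6% of the 35 windows, against 37.4% of all 32851 promoter windows, and the Sp1 box GGGCGG in 71.4% against 35.7%. The E box CACGTG stood in 20% of these windows, those of Dhcr7, Elovl5, Hsd17b7, Insig1, Sc5d and Scap, against 7.15% of all. TCACNCCAC was found for Hmgcs1 alone, while 1.24% of all windows held it. These are matches of letters and not measured sites, and a window without a match says only that the letters are not there.

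In smooth muscle cells, the summed transcripts of the sterol synthesis genes were highest in APOE3 and lower in both other libraries. The 20 genes summed to 386 CPM in APOE2 (383 to 390), 446 in APOE3 (442 to 450) and 396 in APOE4 (392 to 400). Relative to APOE3 the log2 ratio of APOE2 was -0.21 (-0.23 to -0.19) and that of APOE4 -0.17 (-0.19 to -0.15), so both shifts were small but wider than their counting error. The median depth of these cells ran in the same order, at 12958, 19151 and 14900 UMIs per cell, and among cells of 8000 to 20000 UMIs, a range chosen after seeing the data, the ratios were -0.17 and -0.15. Fibroblast markers summed to 1236, 734 and 761 CPM in these cells, macrophage markers to 21.4, 4.91 and 8.16 CPM and erythroid markers to 219, 54.1 and 97.2 CPM, each lowest in APOE3. All 10 fibroblast and all 10 macrophage markers were detected in each library, and 7, 5 and 7 of the 7 erythroid markers. The median mitochondrial share of all cells was 2.15%, 1.63% and 2.68%, and the part of these in the sterol levels was not tested. Of the 20 genes, 15 were highest in APOE3, against 31.0% of all 16108 genes compared in these cells. APOE2 was lowest in 13 of the 20, against 23.0% of all genes. The median log2 ratio of the 20 genes was -0.29 for APOE2, where that of all genes was 0.05, and -0.19 for APOE4, where that of all genes was -0.08. Past a 1.5-fold change, 0 of the 33 genes were higher in APOE2 and 3 were lower (Sqle, Insig1 and Dhcr7), while 9.83% of 15353 genes were that much higher and 2.93% that much lower. In APOE4, 0 of 33 were past 1.5-fold in either direction, against 8.09% of 15018 genes higher and 3.43% lower. Of the 14 immediate early and heat shock genes, 9 were past 1.5-fold higher in APOE4 in these cells. For APOE2, 12 of the 14 had ratios below 0, with 0 past 1.5-fold in either direction. The part of these genes in the sterol levels and in Insig1 was not tested.

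**Figure D1:**
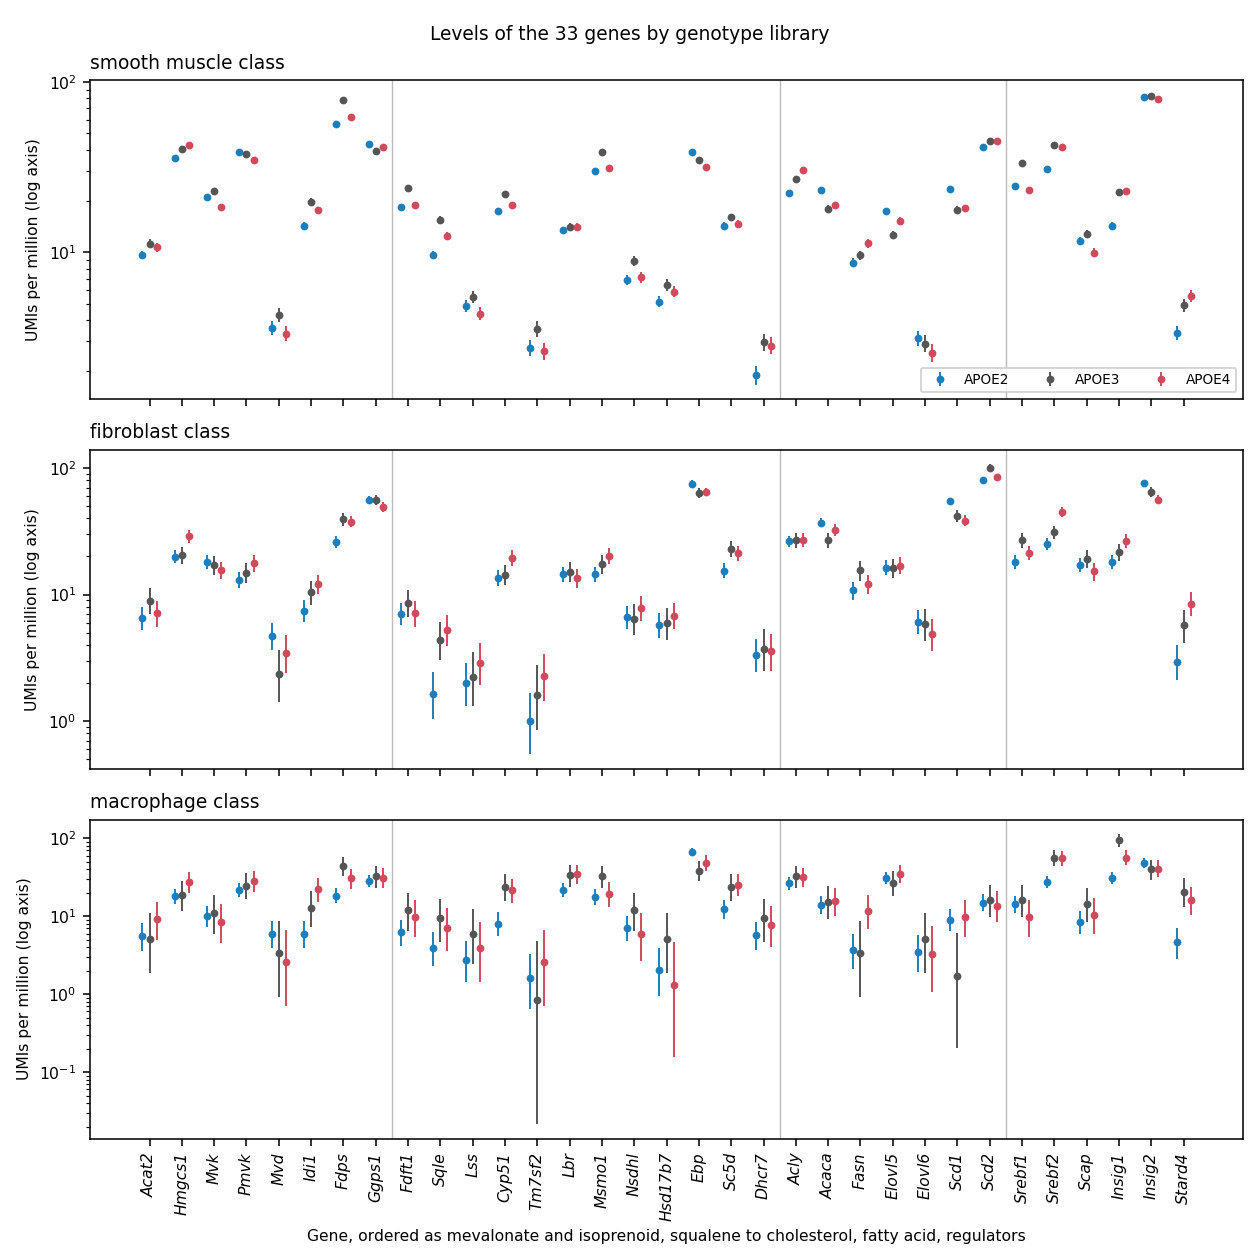
Level of each of the 33 genes in CPM (log axis) in the APOE2, APOE3 and APOE4 libraries, in smooth muscle cells, fibroblasts and macrophages. Points are 1 library each and bars are exact Poisson 95% intervals, which cover counting error only. Insig1 in macrophages ran from 30.9 CPM in APOE2 to 93.9 CPM in APOE3.

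The genes of the mevalonate branch did not all share this order. Fdps (ENSMUSG00000059743, chromosome 3 from 89093588 to 89101959), which makes farnesyl diphosphate, was at 56.6 CPM in APOE2, 78.5 in APOE3 and 61.9 in APOE4, and Idi1, the isopentenyl diphosphate isomerase, at 14.3, 19.8 and 17.7 CPM. Both were lowest in APOE2, with log2 ratios to APOE3 of -0.47 (-0.52 to -0.42) for Fdps and -0.47 (-0.56 to -0.38) for Idi1. Hmgcs1, which makes HMG-CoA and whose promoter window holds the sterol regulatory element, was instead highest in APOE4, at 35.8, 40.2 and 42.8 CPM. The 2 kinases of mevalonate, Mvk at 21.1, 22.7 and 18.4 CPM and Pmvk at 38.7, 37.6 and 34.9 CPM, were lowest in APOE4. The same holds for Mvd, the decarboxylase that follows them, at 3.60, 4.30 and 3.33 CPM. Acat2, the thiolase of the first step, was at 9.68, 11.2 and 10.7 CPM. Reads of Acat2 and Idi1 could be split with their close copies Acat3 and Idi2, so these levels are uncertain. Ggps1 turns farnesyl diphosphate to geranylgeranyl diphosphate for protein prenylation and so leaves the sterol route. It is still counted among the 20 genes of the sterol sum. Its level went the other way, at 43.2 CPM in APOE2, 39.5 in APOE3 and 41.5 in APOE4.

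From squalene on, 10 of the 12 genes were highest in APOE3 and 9 were lowest in APOE2. Sqle (ENSMUSG00000022351, chromosome 15 from 59315077 to 59331192 on GRCm38), the squalene epoxidase that limits the rate of this branch, had the largest difference of the 33 genes in these cells. It was at 9.64 CPM in APOE2 (9.11 to 10.2), 15.5 in APOE3 (14.8 to 16.3) and 12.4 in APOE4 (11.7 to 13.1), with 3 intervals that do not overlap, and was 1.61-fold lower in APOE2 than in APOE3 (log2 ratio -0.69, -0.80 to -0.58). Dhcr7, the reductase of the last step, was at 1.90, 2.96 and 2.84 CPM, and was thus low in APOE2 alone (log2 ratio -0.64, -0.89 to -0.39). Msmo1, the methyl sterol oxidase, was at 29.9, 38.9 and 31.3 CPM, and the squalene synthase Fdft1 at 18.3, 23.7 and 18.9 CPM. Both were near equal in APOE2 and APOE4 and highest in APOE3. Cyp51, the lanosterol demethylase, was at 17.4, 21.9 and 18.9 CPM. The same order held for Nsdhl (6.85, 8.89 and 7.13 CPM) and Hsd17b7 (5.14, 6.44 and 5.88 CPM), which finish the removal of the methyl groups. Tm7sf2, a sterol reductase, was at 2.76, 3.55 and 2.62 CPM, and Lbr, which does the same reaction and is also the lamin B receptor, at 13.5, 14.0 and 14.1 CPM. Of this pair only the interval of Tm7sf2 lay below 0 in both ratios. Lss, the lanosterol synthase, was at 4.83, 5.45 and 4.37 CPM, and Sc5d, the sterol desaturase, at 14.3, 16.0 and 14.6 CPM. Ebp, the sterol isomerase, was the exception of the branch with its highest level in APOE2, at 38.6, 34.5 and 31.7 CPM.

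Fatty acid synthesis genes did not share the order of the sterol genes. Their sum in smooth muscle cells was 140 CPM in APOE2 (138 to 142), 133 in APOE3 (131 to 135) and 142 in APOE4 (139 to 144), so APOE3 was lowest, with a log2 ratio of 0.07 (0.04 to 0.11) for APOE2 and one of 0.09 (0.06 to 0.13) for APOE4. In APOE2 the genes split. Acly, the citrate lyase that supplies acetyl-CoA, was lower in APOE2 and higher in APOE4, at 22.3, 27.0 and 30.6 CPM, and Fasn, the fatty acid synthase, ran the same way at 8.67, 9.60 and 11.3 CPM. Acaca, the acetyl-CoA carboxylase, was highest in APOE2, at 23.2, 18 and 18.9 CPM. So were Elovl5, which elongates polyunsaturated fatty acids, at 17.5, 12.6 and 15.3 CPM, and the desaturase Scd1 at 23.4, 17.8 and 18.2 CPM. The log2 ratios of APOE2 to APOE3 were 0.36 (0.28 to 0.45) for Acaca, 0.48 (0.38 to 0.58) for Elovl5 and 0.40 (0.31 to 0.48) for Scd1. Its close copy Scd2 was at 41.5, 45.0 and 44.9 CPM, and reads of the pair may be split between them. Elovl6, which elongates palmitate, was at 3.13, 2.91 and 2.58 CPM. Summed adipocyte markers, of which 7 or all 8 were detected, stood at 10.4, 20.3 and 22.9 CPM in these cells, and their part in these levels was not tested.

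Among the regulators, Insig1, Srebf2 and Stard4 were lowest in APOE2. Insig1 (ENSMUSG00000045294, chromosome 5 from 28071363 to 28078662) holds Scap back and is itself an SREBP target. It was at 14.3 CPM in APOE2 (13.7 to 15.0), 22.7 in APOE3 (21.8 to 23.6) and 22.9 in APOE4 (22 to 23.8), and so was 1.58-fold lower in APOE2 only (log2 ratio to APOE3 -0.66, -0.75 to -0.57). The ratio no longer passed 1.5-fold with the mean of each cell's CPM (-0.54) or in cells of 8000 to 20000 UMIs (-0.52). Srebf2 (ENSMUSG00000022463, chromosome 15 from 82147181 to 82205379), the SREBP of sterol genes, was at 30.9, 42.8 and 41.2 CPM, so it too was lowest in APOE2. Stard4, a sterol carrier, was at 3.38, 4.90 and 5.57 CPM. Srebf1, the SREBP of fatty acid genes, was instead low in both other libraries, at 24.6 CPM in APOE2, 33.4 in APOE3 and 23.0 in APOE4, and gave the lowest APOE4 to APOE3 log2 ratio of the 33 genes, -0.53 (-0.61 to -0.46). Scap was at 11.6, 12.8 and 9.95 CPM. Insig2, which does the work of Insig1 but is not driven by SREBP, was nearly level at 81.2, 82.1 and 79.3 CPM.

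**Figure D2:**
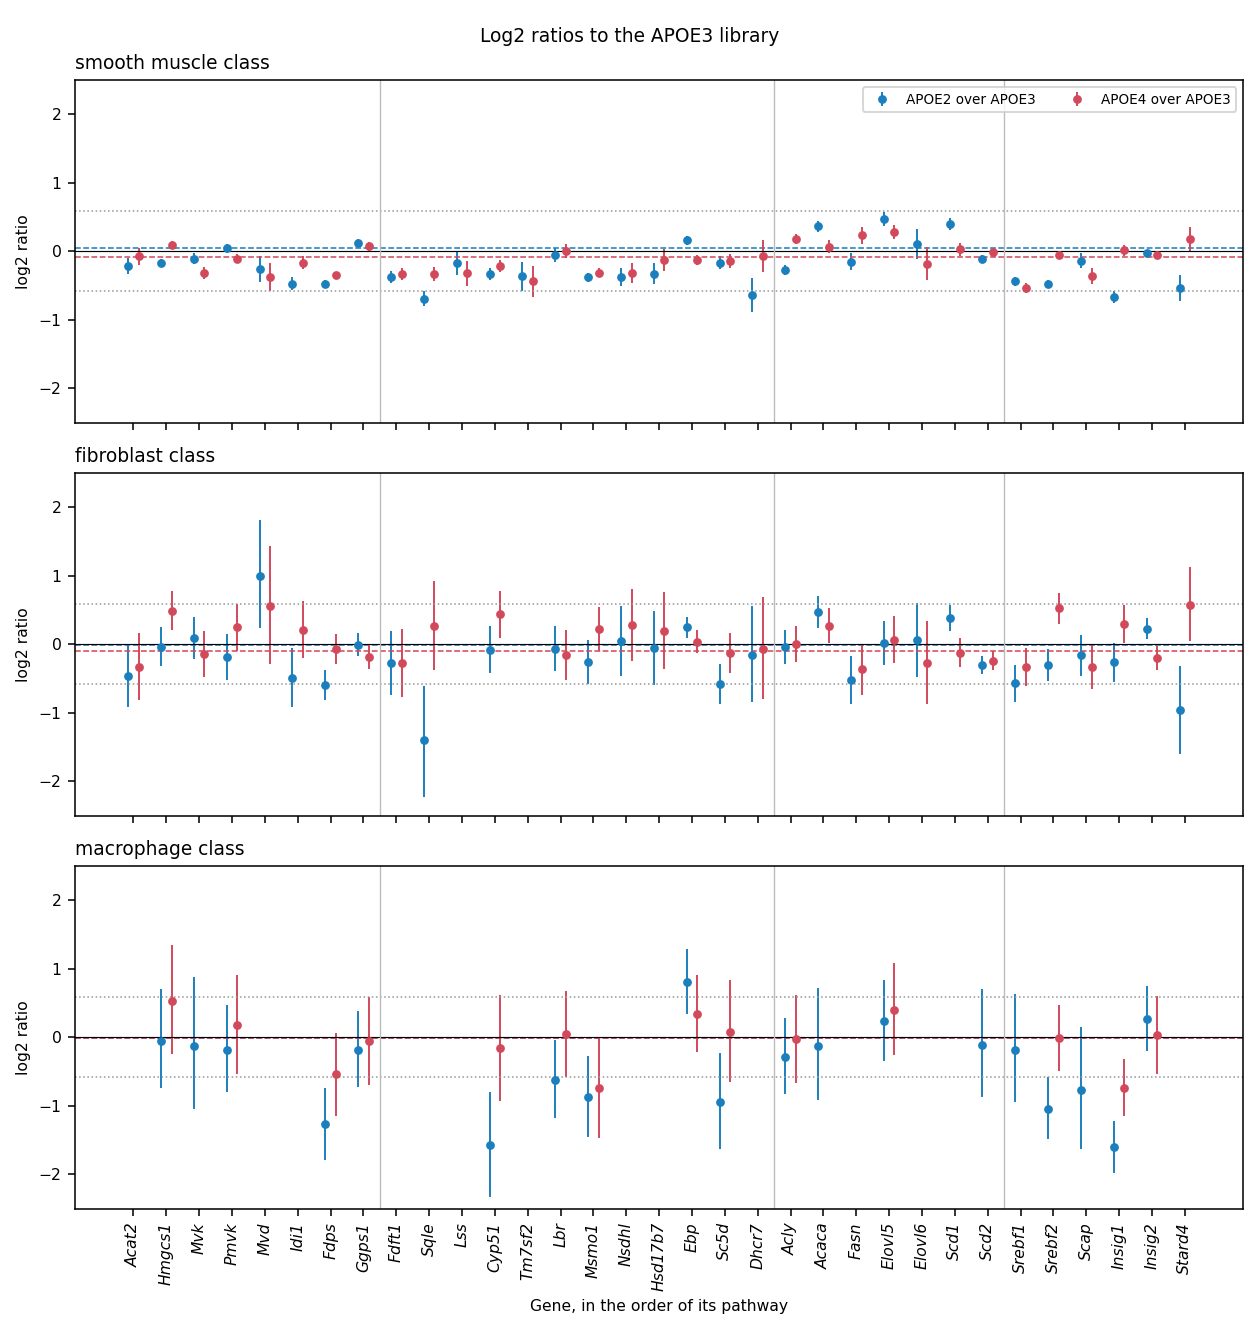
Log2 ratios of the 33 genes, APOE2 over APOE3 and APOE4 over APOE3, in smooth muscle cells, fibroblasts and macrophages. Only genes with at least 50 UMIs in both libraries together are drawn. These are 33 genes in smooth muscle cells and 31 in fibroblasts, and in macrophages 19 for APOE2 and 14 for APOE4. Points are ratios of 1 library to 1 library and bars are exact conditional binomial 95% intervals (counting error only). In smooth muscle cells the median APOE2 to APOE3 ratio of the 20 sterol genes is -0.29, where that of all genes is 0.05.

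The shift was found in most clusters of smooth muscle cells. These clusters are parts of the same 3 libraries and share their depth and preparation, so they are not replicates. The APOE2 to APOE3 ratio of the summed sterol genes was below 0 in 12 of the 14 clusters, with the whole interval below 0 in 11, and the APOE4 to APOE3 ratio in 13 of 14, again with 11 intervals. The exceptions for APOE2 were R4, led by Rgs5 and Hox genes (449, 428 and 390 CPM), and R24 with 38, 32 and 44 cells. The widest gap was in R8, led by Spp1, Vcam1, Timp1 and Lcn2, genes of smooth muscle cells that leave the contractile state. Its leading genes also held the fibroblast marker Lum, and it did not take the smooth muscle name by the full rule. It kept 8 of the 10 smooth muscle markers, the least the class allows. In the alternative clustering at a finer resolution, a cluster led by the same genes (288, 83 and 85 cells) kept 1 of 10. That cluster had Dcn and Lum raised and was not in the smooth muscle class. The part of fibroblast transcripts in the gap of R8 was not tested. In R8 the sum was 374 CPM in APOE2, 557 in APOE3 and 494 in APOE4, a log2 ratio of -0.58 (-0.64 to -0.51) for APOE2. Sqle stood there at 8.93, 20.6 and 18.8 CPM and Fdps at 56.5, 108 and 88.0 CPM. Abca1 in R8 stood at 55.3, 13.8 and 17.8 CPM, the reverse order. R15, led by Dlx5, Dlx6, Msx2 and Tfap2b, transcription factors of neural crest derivatives, held the highest sum of the 14 clusters in each library, at 478, 650 and 552 CPM. In R2, led by Hand2 and Tnnt2, which held 1790 cells of APOE2 but 373 and 332 of the others, the sum was 329, 405 and 374 CPM. Insig1 stood at 10.2, 18.5 and 23.4 CPM in R2. In R4 it was higher in APOE2 than in APOE3, at 17.3, 15.2 and 18.8 CPM. The part of the mix of clusters in the Insig1 level and the sterol sum of all smooth muscle cells was not tested. In R0, the largest cluster with 1380, 1080 and 1376 cells, the sterol sum was 417, 454 and 394 CPM. The fatty acid sum was above APOE3 in 11 of the 14 clusters for APOE2, with 2 intervals above 0 and 1 below.

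**Figure D3:**
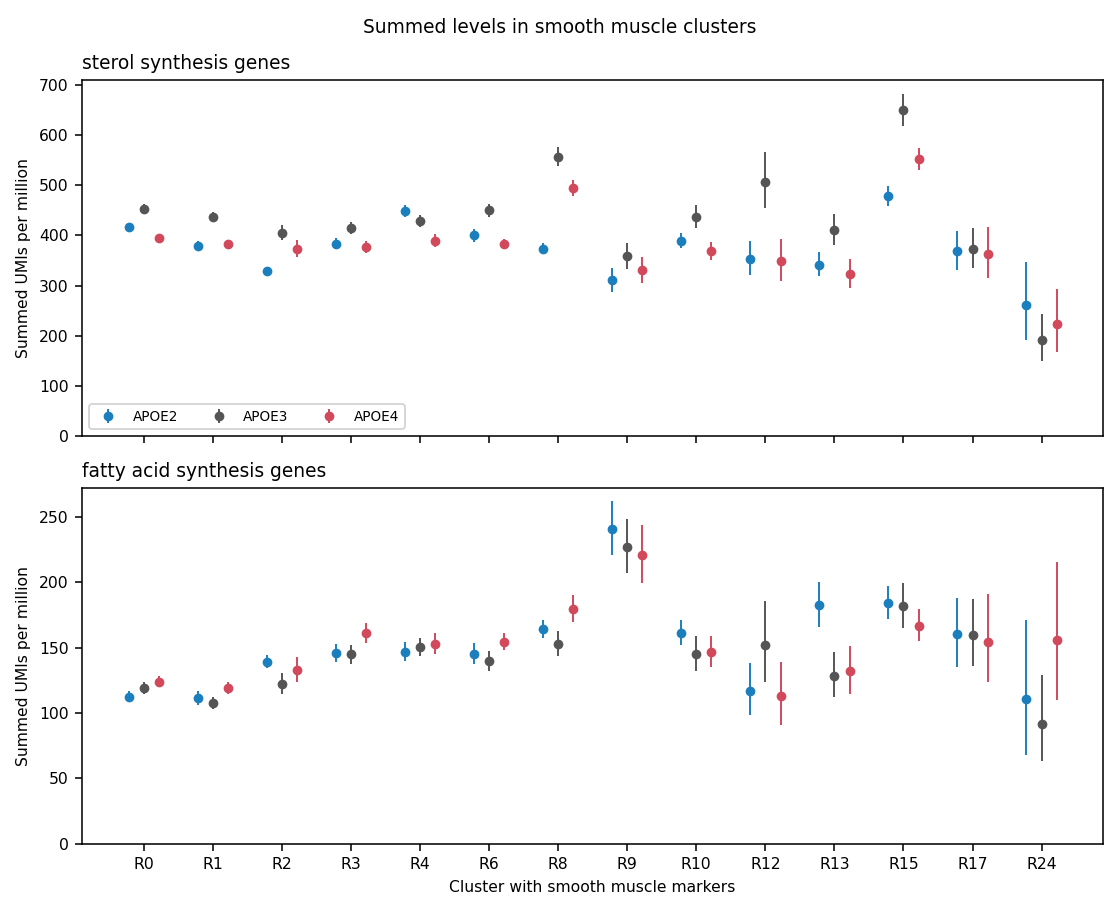
Summed CPM of the 20 sterol synthesis genes (top) and the 7 fatty acid synthesis genes (bottom) in each of the 14 clusters that kept smooth muscle markers. Points are the APOE2, APOE3 and APOE4 libraries, with exact Poisson 95% intervals (counting error only). For the sterol sum, APOE3 is above APOE2 in 12 of the 14 clusters, by most in R8 (557 against 374 CPM).

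Across the clusters the sterol genes varied together to unequal degrees. Over 39 points, each 1 cluster in 1 library with at least 500000 UMIs, Msmo1 followed the sum of the other sterol genes with Pearson r 0.77 and Sqle with r 0.76. Idi1 and Nsdhl each had r 0.62, Insig2 0.60 and Fdps 0.59. Ggps1, on the prenylation side, had r 0.02, and the fatty acid genes ran from -0.19 for Elovl5 to 0.41 for Scd1. Of genes that respond to sterol excess, the LXR target Abca1 had r -0.46, Abcg1 -0.32 and Mylip -0.21. Ch25h, at 5.98 CPM or less, went the other way with 0.35. Compared with the sterol sum were 8197 genes with a mean of at least 10 CPM, those of the lists included. Outside the lists, Scpep1 (0.85), Tspan3 (0.83), Srpx2 (0.82), Metrnl (0.81) and Sdcbp (0.81) were most like it. The points share libraries and depths, so these r values describe the clusters and carry no test.

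Per cell the difference was a fraction of a transcript. With each cell thinned to 5000 UMIs, the mean number of sterol synthesis UMIs in a smooth muscle cell was 1.93, 2.20 and 1.96, and the median was 2 in all 3 libraries. Insig1 was seen in 6.75% of thinned cells of APOE2 (6.19 to 7.34, exact binomial interval), 9.70% of APOE3 (8.86 to 10.6) and 9.52% of APOE4 (8.79 to 10.3). The shares without thinning were 17.8%, 31.4% and 29.1%. Left out as shallower were 1419, 449 and 473 cells, and the thinned cells had median depths of 14328, 19965 and 15540 UMIs. Among thinned erythroid cells, of median depths 7964, 11314 and 8611 UMIs, Insig1 was seen in 2.70% of 37 cells in APOE2 and in 0 of 3 and 0 of 18 in the others.

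In fibroblasts the sterol sum was lowest in APOE2, and APOE3 and APOE4 lay within counting error of each other. The sterol sum was 312 CPM in APOE2 (303 to 321), 335 in APOE3 (323 to 348) and 346 in APOE4 (335 to 358), so APOE2 had a log2 ratio of -0.10 (-0.17 to -0.03) and APOE4 one of 0.05 (-0.03 to 0.12). Smooth muscle markers, all 10 of them detected, summed to 4146, 6526 and 5136 CPM in fibroblasts, and erythroid markers to 860, 10.2 and 336 CPM, with 7, 5 and 7 of 7 detected. Without the 101, 57 and 68 fibroblasts with at least 0.555% of their UMIs in smooth muscle markers, an alternative chosen after seeing the data, the sterol ratios were -0.095 and 0.062, while the part of the erythroid transcripts was not tested. APOE2 was lowest in 14 of 20 sterol genes, against 29.3% of all genes. Of the 31 genes with at least 50 UMIs in both libraries together, 1 was past 1.5-fold higher in APOE2 (Mvd) and 3 were lower (Sqle, Stard4 and Fdps), against 5% of 12083 genes higher and 6.15% lower. For APOE4 0 of 31 were past 1.5-fold in either direction, against 5.35% of 11761 genes higher and 5.08% lower.

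Sqle in fibroblasts was at 1.64 CPM in APOE2 (1.04 to 2.46), 4.34 in APOE3 (3.02 to 6.03) and 5.23 in APOE4 (3.92 to 6.85). Stard4 was at 2.93, 5.70 and 8.49 CPM, and Fdps at 26.0, 39.3 and 37.6 CPM. APOE2 was thus low alone in these genes, with log2 ratios to APOE3 of -1.40 (-2.23 to -0.60), -0.96 (-1.61 to -0.32) and -0.59 (-0.81 to -0.37). The last no longer passed 1.5-fold under 6 of the alternatives, among them cells of 8000 to 20000 UMIs (-0.35) and classes by cell (-0.52). Mvd was highest in APOE2, at 4.71, 2.35 and 3.46 CPM, with few UMIs behind it. Srebf2 was highest in APOE4, at 25.1, 31.0 and 44.6 CPM (log2 ratio of APOE4 to APOE3 0.53, 0.30 to 0.76). Hmgcs1 was at 19.9, 20.4 and 28.7 CPM and Cyp51 at 13.6, 14.4 and 19.5 CPM. Insig1 climbed in the same order, at 18, 21.6 and 26.5 CPM, though its interval for APOE2 against APOE3 held 0 (-0.55 to 0.03). The fatty acid sum was 231, 232 and 216 CPM. Within it Acaca (37.0, 26.8 and 32.4 CPM) and Scd1 (54.3, 41.6 and 38.3 CPM) were highest in APOE2, as in smooth muscle cells, while Fasn (10.8, 15.5 and 12.0 CPM) and Scd2 (80.5, 99.5 and 84.4 CPM) were highest in APOE3. Srebf1 was at 18.1, 26.8 and 21.3 CPM. The 14 immediate early and heat shock genes moved with APOE4 in these cells, 11 of them past 1.5-fold higher, and their part in these levels was not tested.

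In macrophages the sterol sum was lowest in APOE2, and single genes differed by more than in smooth muscle cells, over fewer UMIs. The sum was 271 CPM in APOE2 (256 to 287), 359 in APOE3 (326 to 396) and 347 in APOE4 (318 to 377), with a log2 ratio of -0.41 (-0.57 to -0.24) for APOE2 and one of -0.05 (-0.24 to 0.14) for APOE4. Thinned to 5000 UMIs per cell, the mean number of sterol synthesis UMIs was 1.39, 1.46 and 1.43, over 304, 89 and 107 cells. Left out as shallower were 102, 37 and 64 cells. The class joins cluster R16, with sums of 265, 370 and 355 CPM, to cluster R23, led by Pf4. R23 had 365, 247 and 243 CPM over 69, 33 and 46 cells, highest in APOE2 with overlapping intervals. Erythroid markers summed to 1840, 13.7 and 119 CPM in macrophages (7, 3 and 5 of 7 detected) and neutrophil markers to 149, 32.4 and 27.3 CPM (6, 4 and 2 of 7 detected, with Cxcr2 at 0 in each), both highest in APOE2. Their part in the levels of these cells was not tested. Among cells of 8000 to 20000 UMIs the APOE2 ratio was -0.07, and without the 1 cell of most sterol UMIs in each library, also tried after seeing the data, it was -0.23. The difference in this sum was thus smaller among cells of middle depth, and 1 cell in each library made up part of it. Of 19 genes with at least 50 UMIs, 1 was past 1.5-fold higher in APOE2 (Ebp) and 8 were lower (Insig1, Cyp51, Fdps, Srebf2, Sc5d, Msmo1, Scap and Lbr), against 9.84% of 8747 genes higher and 9.33% lower. For APOE4, 0 of 14 were higher and 2 lower (Msmo1 and Insig1), against 10.6% of 6572 genes higher and 7.64% lower. With at least 200 UMIs required, the APOE2 count was 2, against 12.4% of 4115 genes in either direction. Few of the 33 genes reached this limit in macrophages for APOE2 with APOE3, and none did for APOE4 with APOE3. The APOE4 count of 0, against 13.1% of 2219 genes, was thus fixed in advance. These 2 counts cannot be read against those shares or set beside the counts at 50 UMIs. With the mean of each cell's CPM, 5 of the 8 lower genes no longer passed 1.5-fold in APOE2, Srebf2 (-0.39), Sc5d (-0.38), Msmo1 (-0.49), Lbr (-0.49) and Scap (-0.47). In cells of 8000 to 20000 UMIs the same was so for Fdps (-0.47), Sc5d (-0.52), Msmo1 (-0.45), Lbr (-0.37) and Scap (-0.47), and for Msmo1 in APOE4 (-0.17). Insig1 and Cyp51 stayed past 1.5-fold lower in APOE2 under each of the 11 alternatives computed.

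Insig1 had the clearest difference. It was at 30.9 CPM in APOE2 (25.8 to 36.5), 93.9 in APOE3 (77.2 to 113) and 56.5 in APOE4 (45.3 to 69.7), from 134, 110 and 87 UMIs, and its 3 intervals did not overlap. The level in APOE2 was 3.04-fold lower than in APOE3 (log2 ratio -1.61, -1.98 to -1.23), and stayed between -1.76 and -1.21 under the 11 alternatives computed. Thinned to 5000 UMIs, 12.5% of APOE2 macrophages (9 to 16.8), 30.3% of APOE3 (21.0 to 41.0) and 27.1% of APOE4 (19.0 to 36.6) showed Insig1, over 304, 89 and 107 cells. The shares without thinning were 27.0%, 42.7% and 41.1%. The summed immediate early and heat shock genes ran in the order of the Insig1 CPM in macrophages, at 20118, 31100 and 24229 CPM. Of these 14 genes, 6 were past 1.5-fold lower in APOE2 than in APOE3 and 1 was higher, against 9.33% and 9.84% of all genes. Their part in the Insig1 level was not tested. Srebf2 was at 27.4, 56.4 and 55.9 CPM, low in APOE2 alone (log2 ratio -1.04, -1.49 to -0.58). Stard4, with under 50 UMIs for APOE2 and APOE3 together, was at 4.60, 20.5 and 16.2 CPM in the same order. Of the enzymes, Cyp51 was at 8.06, 23.9 and 21.4 CPM, Fdps at 18.4, 44.4 and 30.5 CPM and Sc5d at 12.4, 23.9 and 25.3 CPM. In APOE3, 1 cell held 11.8% of the Insig1 UMIs, 19.2% of those of Fdps and 54.5% of those of Sqle, so the last (3.91, 9.39 and 7.14 CPM) has little behind it. Lbr was at 21.6, 33.3 and 34.4 CPM and Msmo1 at 17.7, 32.4 and 19.5 CPM. Ebp was highest in APOE2 in macrophages too, at 67.0, 38.4 and 48.7 CPM, but the direction turned (log2 ratio -0.26) when each cell's CPM was averaged. Scd1 had 39, 2 and 15 UMIs. Smooth muscle transcripts were higher in APOE3 and APOE4 macrophages than in APOE2, as given above, and without the cells with at least 0.555% of their UMIs in them (60, 24 and 32 cells) every ratio of these cells that was recomputed lay within its main counting interval.

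**Figure D4:**
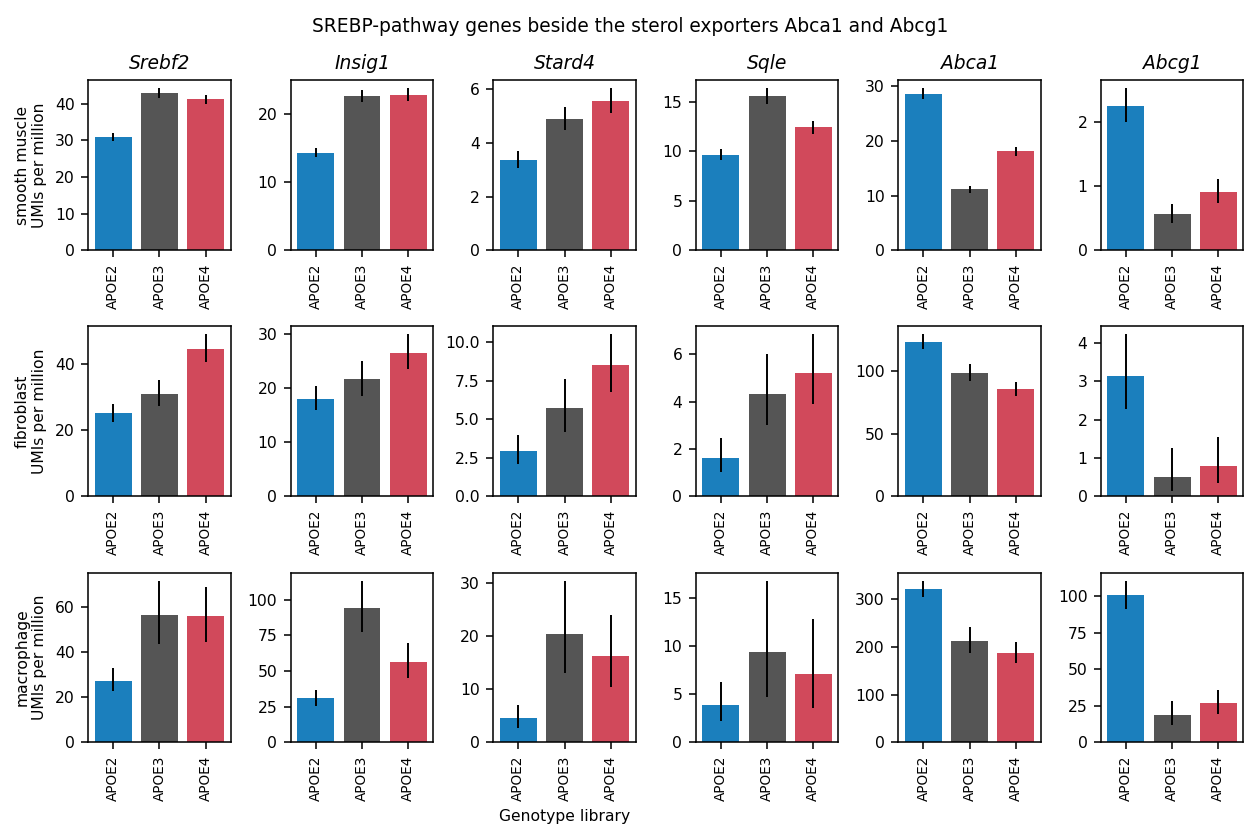
Levels in CPM of Srebf2, Insig1, Stard4, the enzyme gene Sqle and the LXR targets Abca1 and Abcg1. Bars are smooth muscle cells, fibroblasts and macrophages of the APOE2, APOE3 and APOE4 libraries, with exact Poisson 95% intervals (counting error only). In macrophages Insig1 and Srebf2 are lowest in APOE2 while Abcg1 (101, 18.8 and 26.6 CPM) is highest there.

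Several genes that respond to sterol excess were higher in APOE2. Of 8 listed genes, 3 were past 1.5-fold higher in APOE2 than in APOE3 in smooth muscle cells, 2 of the 7 with enough UMIs in fibroblasts and 5 of 8 in macrophages, and 0 were that much lower in any of these classes. Of all genes, 9.83%, 5% and 9.84% were that much higher. Nr1h2, an LXR gene, and Soat1, which esterifies cholesterol, were not among them in any of these classes. In smooth muscle cells Nr1h2 was at 70.1, 76.0 and 62.5 CPM and Soat1 at 19.9, 21.2 and 18.7 CPM. In macrophages Nr1h2 was at 46.5, 41.8 and 40.9 CPM and Soat1 at 97.4, 76.0 and 59.1 CPM. Abca1, the exporter of cholesterol to apolipoproteins, was at 28.6, 11.1 and 18.1 CPM in smooth muscle cells, where Abcg1 was at 2.25, 0.561 and 0.906 CPM. The summed macrophage markers given above ran in this order in smooth muscle cells, and their part in these levels was not tested. In macrophages Abca1 was at 322, 213 and 188 CPM and Abcg1 at 101, 18.8 and 26.6 CPM. Ch25h, which makes 25-hydroxycholesterol, was at 45.8, 20.5 and 58.4 CPM in macrophages, so it was high in APOE4 as well. In fibroblasts Ch25h had 48, 3 and 9 UMIs (log2 ratio of APOE2 to APOE3 3.20, 1.57 to 5.53) and Nr1h3, the other LXR gene, was at 28.8, 17.7 and 15.9 CPM. For APOE4, 2 of 7 were past the fold in smooth muscle cells (Abca1 with log2 ratio 0.70 and Abcg1 with 0.69), 0 of 6 in fibroblasts and 1 of 7 in macrophages (Ch25h, 1.51), where 8.09%, 5.35% and 10.6% of all genes were that much higher.

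Other genes of the SREBP and lipid synthesis pathway were also listed, and 23 of 24 were measured. In smooth muscle cells 1 of 23 was past 1.5-fold in APOE2, Por, which feeds electrons to Cyp51 and Sqle, with a log2 ratio of 0.77 (0.72 to 0.81), against 9.83% of all genes higher and 2.93% lower. None of the 23 was past the fold for APOE4 there, and none for APOE2 or APOE4 in fibroblasts. In macrophages 3 of 18 were lower in APOE2, against 9.33% of all genes, the acyl-CoA synthetase Acsl3 (-0.94, -1.47 to -0.39), the sterol-regulated Tmem97 (-0.83, -1.59 to -0.02) and the phosphatidate phosphatase Lpin1 (-0.67, -1.34 to 0.04). For APOE4, Por was higher (0.96, 0.58 to 1.35) and the desaturase Fads1 lower (-0.69, -1.50 to 0.10) of 12, against 10.6% of all genes higher and 7.64% lower.

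Levels also differed between cell types, which is given without a test because the classes come from these same cells. All 3 fibroblast values were above all 3 smooth muscle values for 8 of the 33 genes and below them for 12, where 38.6% of 16712 genes were above and 21.3% below. Those above were Scd1 (38.3 to 54.3 CPM against 17.8 to 23.4), Scd2, Elovl6, Ebp, Acaca, Scap, Ggps1 and Dhcr7, of which 4 are fatty acid genes. Those below were Insig2 and 11 sterol synthesis enzymes, with Sqle (1.64 to 5.23 CPM against 9.64 to 15.5), Fdft1, Pmvk and Lss the furthest below. In macrophages 5 genes were above smooth muscle cells and 15 below, where 26.9% of 16574 genes were above and 36.6% below. Insig1, Lbr, Dhcr7, Elovl5 and Elovl6 were above. Scd2 was furthest below among fatty acid genes, at 13.6 to 16.2 CPM against 41.5 to 45.0 CPM.

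**Figure D5:**
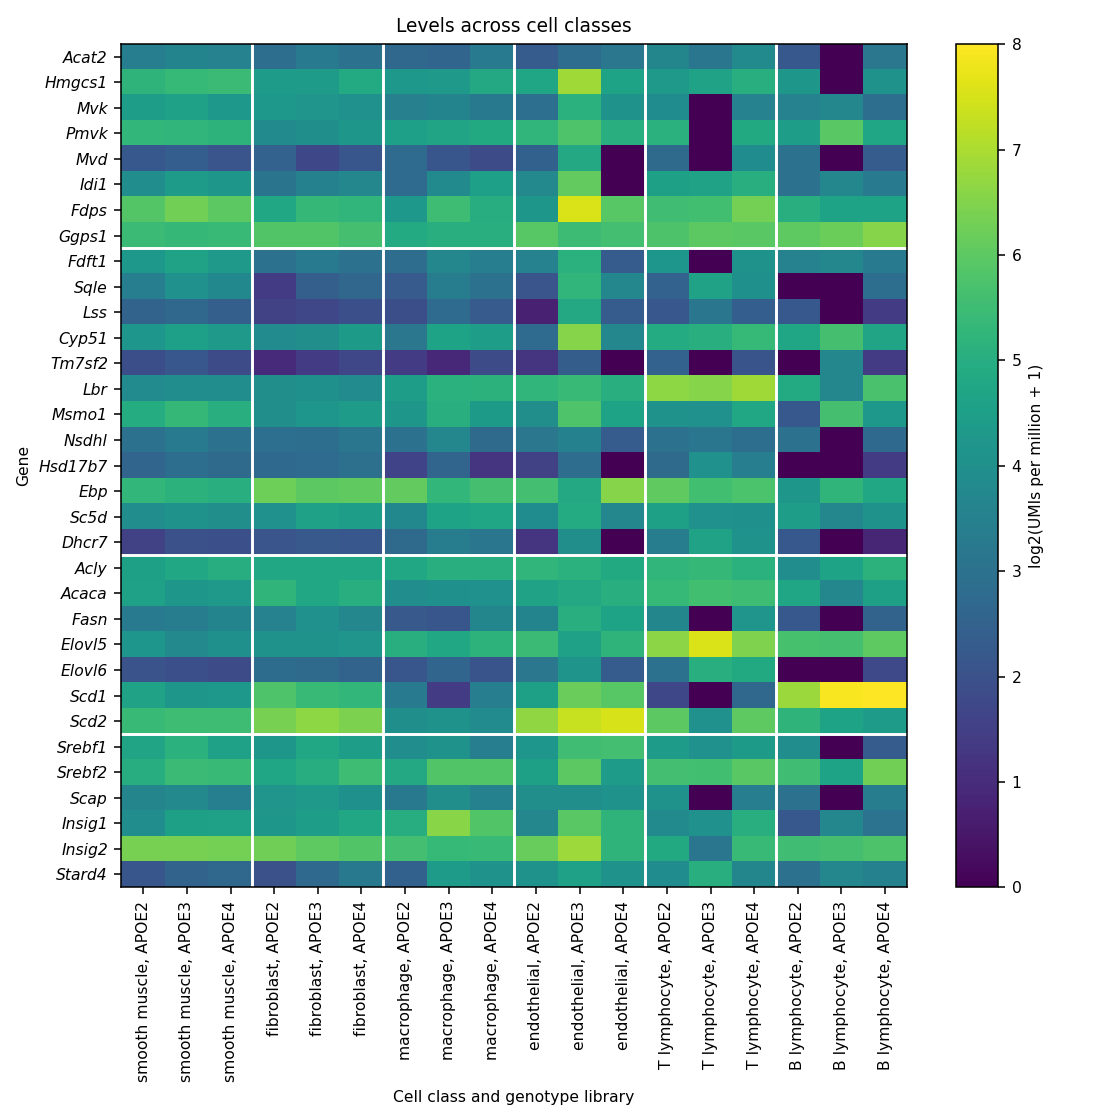
Levels of the 33 genes as log2(CPM + 1), shown by color, with 1 column for each cell class and genotype library. The classes are smooth muscle cells, fibroblasts, macrophages, endothelial cells, T lymphocytes and B lymphocytes. No intervals are drawn. The sterol synthesis sum was highest in APOE3 endothelial cells, at 911 CPM from 33 cells. In erythroid cells, which are not drawn, it was lowest, at 5.11 to 56.1 CPM.

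T lymphocytes held sterol sums of 489, 445 and 591 CPM, with Lbr at 98.1, 93.6 and 115 CPM and Elovl5 at 97.0, 187 and 87.1 CPM, where smooth muscle cells had 13.5 to 14.1 and 12.6 to 17.5 CPM. B lymphocytes had a sterol sum of 285, 364 and 349 CPM and a fatty acid sum of 239, 352 and 403 CPM, much of it Scd1 at 110, 243 and 256 CPM. In APOE3 1 of the 11 B lymphocytes held 70% of 20 Scd1 UMIs, while in APOE4 no cell held more than 2.5% of 320. Endothelial cells of APOE3 had a sterol sum of 911 CPM (828 to 1001) against 317 in APOE2 and 384 in APOE4. Fdps was at 18, 186 and 60 CPM, Hmgcs1 at 25.9, 115 and 24.0 CPM and Cyp51 at 5.99, 92.0 and 12.0 CPM. These were 33 cells, of which 16, with 62.0% of the UMIs, had at least 0.555% of their UMIs in smooth muscle markers (10% of the smooth muscle median of 5.55%), and 1 cell held 31.5% of the Fdps UMIs. The endothelial markers summed to 4363, 1420 and 2856 CPM in these cells, so the APOE3 group had the fewest endothelial transcripts. Cycling genes summed to 3.33, 765 and 4 CPM there, with 2, 6 and 1 of 6 detected, and Schwann cell markers to 77.2, 1070 and 676 CPM, with 5, 6 and 5 of 6 detected. The smooth muscle markers summed to 5579, 16656 and 10289 CPM, and the part of these in the sterol level was not tested.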

How the data were processed

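Cells of the aorta were profiled with 1 10x Chromium library for each of 3 genotypes. Reads were mapped by the authors to mm10 in Cell Ranger (7.0.1 per the file headers), who deposited raw UMI counts per gene and barcode, without normalization. No other unit was used. The 33 genes and the other lists were chosen with earlier results of these data known.

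Cells with at least 200 genes and under 20% mitochondrial UMIs were kept. Libraries were normalized with sctransform 0.4.2, integrated by canonical correlation over 3000 features (4 of the 33 genes left out of them) and 30 components, and clustered (Louvain, resolution 0.8), with Seurat 5.3.0 and R 4.3.3. Clusters were named from 19 marker lists, when at least 3 markers were detected in at least 10% of cells and raised at least 2-fold. The smooth muscle class took clusters in which 8 or more of its 10 markers had not dropped under 50% of their overall level and under 3 markers of another type were raised. Doublets were kept, since the Scrublet threshold called under 0.5% of cells and so did not work, and an alternative removed the highest scores, 0.8% for each 1000 cells.

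UMIs were summed by class and library. The code for ratios and intervals was checked on simulated counts, and no difference between genotypes was tested. The 168310501, 125105151 and 124926887 UMIs of the libraries make counting errors narrow in smooth muscle cells and wide in macrophages, lymphocytes and endothelial cells. A call was a 1.5-fold ratio among genes with at least 50 UMIs in both libraries together. All 33 genes are named. Of the other lists, up to 3 genes in each direction past the fold with the largest ratio are named, and outside them the 5 genes most like the sterol sum. Additional genes of these lists are named only to describe the sterol excess response, chosen after their values were seen. Coordinates are GRCm38. There were 12 kinds of alternatives for the ratios. For the counts past the fold, a fold of 1.25 and a limit of 200 UMIs were also used. Of the 12, 3 (a depth window, cells with few smooth muscle transcripts, and removal of the cell of most sterol UMIs) were chosen after seeing the data. Python 3.11.15, scipy 1.17.1, pandas 2.3.3 and scanpy 1.11.5 were used.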

Additional observations from a re-analysis of the deposited data

Results flagged for a closer look

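In 4 cases a ratio lay above APOE3 in one cell class and below it in another, with both counting intervals clear of 0. The difference between the classes was not tested. Mvd in APOE2 had a log2 ratio of -0.26 in smooth muscle cells and 1.00 in fibroblasts. Cyp51 in APOE4 had -0.21 in smooth muscle cells and 0.44 in fibroblasts. Insig1 in APOE4 had 0.30 in fibroblasts and -0.73 in macrophages. The sum of the fatty acid synthesis genes in APOE4 had 0.094 in smooth muscle cells and -0.10 in fibroblasts.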

How the results depend on the processing

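No paired analysis was possible because each genotype has 1 library. The sterol sum of APOE2 stayed below that of APOE3 in smooth muscle cells, fibroblasts and macrophages under every alternative computed. Its log2 ratio in smooth muscle cells was -0.18 without mitochondrial and ribosomal genes in the total, -0.18 with classes at resolution 1.6, -0.25 with scaling to the median gene and -0.17 in cells of 8000 to 20000 UMIs. In macrophages it was -0.070 in that depth window and -0.23 without the cell of most sterol UMIs. The sterol ratio of APOE4 in smooth muscle cells was -0.13 without mitochondrial and ribosomal genes, -0.15 in the depth window and -0.089 with median scaling. It was 0.15 in fibroblasts with median scaling and -0.31 in macrophages with the mean of each cell's CPM. The fatty acid ratio of APOE2 was 0.027 in smooth muscle cells with median scaling and 0.029 with the mean of each cell's CPM. It was -0.11 in fibroblasts with classes by cell, and -0.47 in macrophages with the mean of each cell's CPM. That of APOE4 in smooth muscle cells was 0.18 with median scaling, 0.057 in the depth window, 0.023 with the mean of each cell's CPM and 0.13 without mitochondrial and ribosomal genes. It was -0.0064 in fibroblasts with median scaling and -0.45 in macrophages with the mean of each cell's CPM. Ebp in macrophages turned to -0.26 with the mean of each cell's CPM. At 1.25-fold, the genes past the fold for APOE2 numbered 17 of 33 in smooth muscle cells (27.9% of all genes) and 11 of 31 in fibroblasts (29.2%). For APOE4 they numbered 7 of 33 in smooth muscle cells (27.5%), 9 of 31 in fibroblasts (31.1%) and 6 of 14 in macrophages (42.5%). With at least 200 UMIs they numbered 1 in fibroblasts (7.01%) and 2 in macrophages (12.4%) for APOE2 and 0 in macrophages (13.1%) for APOE4. The cause of these changes was not tested. Counting error was wide for single genes in macrophages, where the interval of Scap in APOE2 (-0.77, -1.63 to 0.15) held 0.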
